A study of Mus musculus with 9 samples.

Results

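The comparison described here sets all-trans retinoic acid (ATRA) directly against LE540, a retinoic acid receptor antagonist, in cultured mouse aortic valves. Its members are the 6 arrays whose titles name one of these compounds, 3 with ATRA and 3 with LE540, of 9 arrays in all; the remaining 3 arrays hold valves cultured with DMSO, whose level is given as a reference only. Each array carried RNA from the pooled aortic valves of 5 to 6 pups of the C57BL/6J background, taken at postnatal day 1. The labels name no engineered allele or transgene in any group. All valves floated on filters in serum-containing medium for 48 hours. ATRA was given at 1 µmol/L in DMSO, and the reference group received DMSO alone at 0.001%. The labels used here name neither a dose nor a vehicle for LE540, so the doses of both compounds cannot be matched, and the comparison is between the treatments as given. Titles call the arrays of a group biological replicates. A pool mixes all cell types of the dissected tissue, so a larger share of cells of a type and more RNA per cell cannot be told apart.

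Retinoic acid, made from vitamin A by retinol and retinaldehyde dehydrogenases, enters the nucleus and binds retinoic acid receptors, which sit on DNA as partners of retinoid X receptors. Without the ligand these pairs tend to hold corepressors, and with it they recruit coactivators. An antagonist occupies the ligand pocket without activating the receptor. Among the genes that respond most directly are those of the pathway itself, such as the hydroxylases that degrade retinoic acid, an enzyme that returns retinaldehyde to retinol, and a receptor. In the developing heart retinoid signalling is known for its part in the outflow tract and the valves, whose interstitial cells make the layered matrix of collagen, proteoglycan and elastin.

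Valves given ATRA held more transcript of retinoic acid response genes (Dhrs3, Rarb, Tgm2 and Cyp26a1) than valves given LE540. In their lists 2 of 5 degradation or clearance genes, 1 of 10 receptors and cofactors and 3 of 17 other targets passed. Also higher were the fat cell regulator Pparg (1 of 16 adipogenic genes), the fibroblast protease Fap (1 of 25 matrix proteases and inhibitors) and the growth factor genes Tgfb3, Igf1, Hgf and Bmp2. Of the TGF-beta, activin and BMP list 3 of 29 passed, and of the IGF list 1 of 11. Of all genes, 0.436% passed with higher values in ATRA and 0.191% with higher values in LE540. Valves given LE540 held more transcript of the metallothioneins Mt1 and Mt2, of Ddit3, Asns, Chac1 and Gpt2 of the integrated stress response (4 of 19 measured), of the serine and folate enzymes Mthfd2, Psat1, Shmt2 and Phgdh (4 of 13), of the amino acid transporters Slc7a11, Slc3a2 and Slc6a9 (3 of 15) and of the heme oxygenase Hmox1. Some of these calls ended with 1 array left out: Rarb, Igf1, Hgf, Bmp2, Mt1, Asns, Chac1, Gpt2, Shmt2, Phgdh, Slc7a11 and Slc3a2. Of 23397 probe sets with a gene symbol, 141 (0.603%) passed at an adjusted p under 0.1 in limma, the threshold of the series' design text. Of these, 96 (0.410%) were higher in ATRA and 45 (0.192%) were higher in LE540. This balance turned without LE540 replicate 2, where 132 were higher in ATRA and 146 higher in LE540. A total of 98 (0.419%) also differed over 2-fold, 73 of them higher in ATRA and 25 higher in LE540. Adding the replicate number to the model as a block gave 221, 158 higher in ATRA and 63 higher in LE540. With a fit on the 6 arrays of these treatments alone, which has fewer samples, 25 passed, 20 higher in ATRA and 5 higher in LE540. Across all probe sets the ATRA and LE540 arrays did not overlap in 2687 of 23397 (11.5%), with ATRA higher in 1226 (5.24%) and lower in 1461 (6.24%), so a lack of overlap by itself was common. An unadjusted p under 0.05 was seen for 2231 (9.54%).

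**Figure D1:**
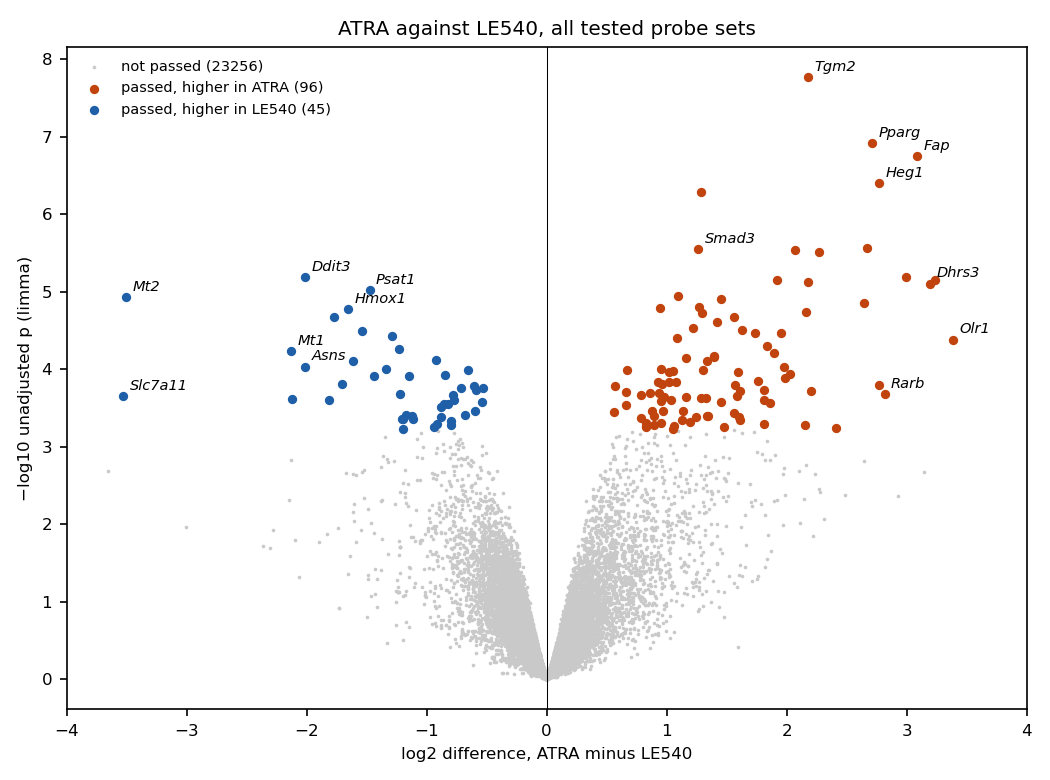
Each point is 1 of 23397 probe sets. The horizontal axis is the log2 difference of ATRA minus LE540, and the vertical axis is minus log10 of the unadjusted limma p. The 96 orange points passed with higher values in ATRA and the 45 blue points with higher values in LE540, and Tgm2 has the lowest p.

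The arrays were alike in scale, with medians of 123.61 to 128.13 intensity units, and every pair correlated at r = 0.956 to 0.991 across probe sets. LE540 replicate 1 stood apart: on the first principal component, which held 32.5% of the variance, it lay at 63.7, with the other 8 arrays between -21.5 and 13.9. Without it, 67 probe sets passed, 52 higher in ATRA and 15 higher in LE540, and 55 of them were among the 141. Counts for each array left out are shown in the plot of passing probe sets by setting. They ranged from 54 without DMSO replicate 3 to 278 without LE540 replicate 2, and each of the 141 kept its direction in each of these fits. The sex-linked transcripts differed between pools: Xist read 85.7, 1393 and 326 in the ATRA arrays, 61.6, 1652 and 1361 in the LE540 arrays and 2903, 2589 and 2294 in the DMSO arrays, with the ATRA and LE540 values overlapping. Eif2s3y, a Y-linked gene, read 664, 271 and 732 in ATRA and 579, 75.7 and 701 in LE540, and the Y-linked Uty and Kdm5d differed by 0.75 and 0.43 with their groups overlapping; none of the 4 passed. With a score of the Y-linked genes as a covariate 129 probe sets passed, 104 of them among the 141.

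**Figure D2:**
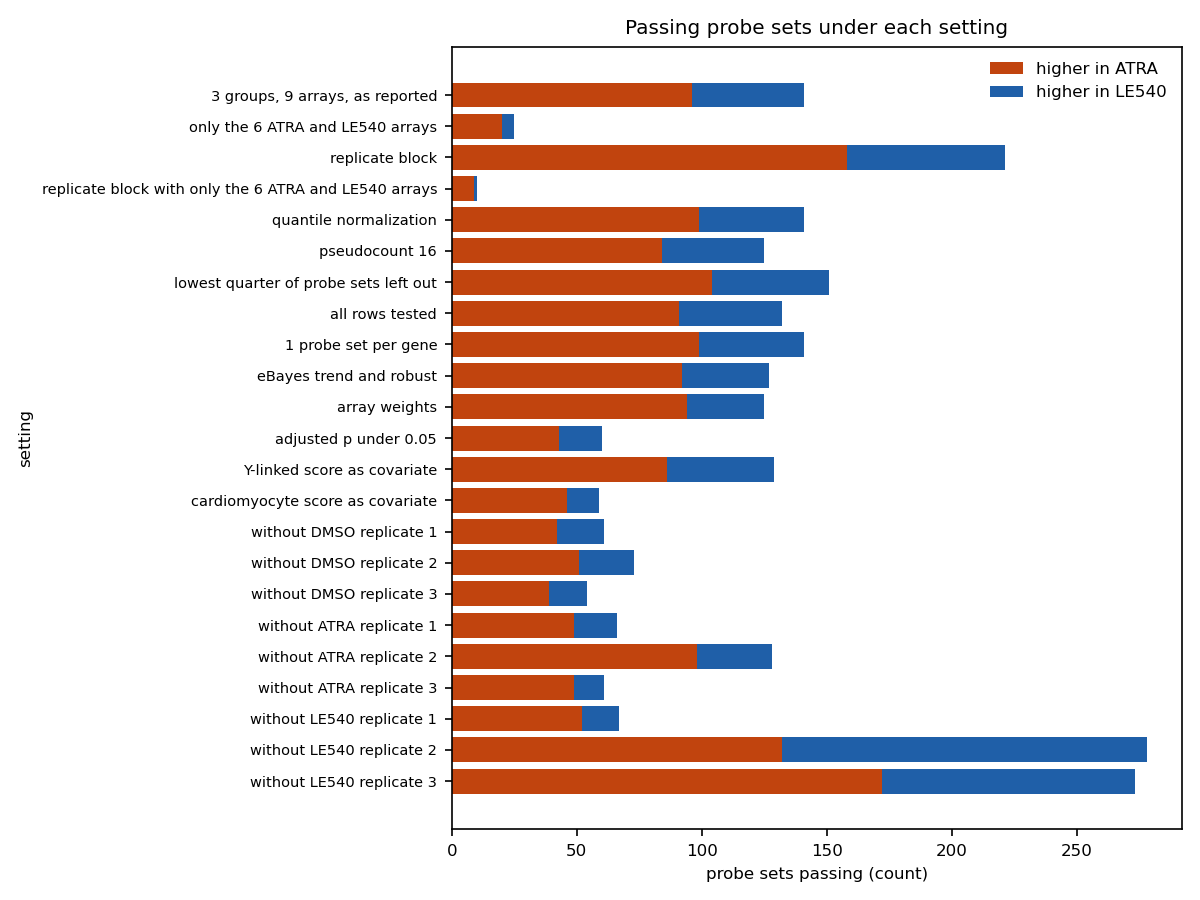
Bars count the passing probe sets (horizontal axis) under each setting (vertical axis), orange for those higher in ATRA and blue for those higher in LE540. The count is 141 as reported, 25 with the 6 ATRA and LE540 arrays alone, 221 with the replicate block, and 54 to 278 with 1 array left out.

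Promoters of the retinoid genes are shown because the direct repeat retinoic acid response element, a pair of hexamers 5 bases apart (DR5) that receptor pairs bind, can be read in them. The 250 bases before the annotated start were taken from RefSeq (GRCm38.p6) for the 3 retinoid metabolism and receptor genes that passed, and both strands were searched. Of 32851 mouse promoters of this length, 29 (0.0883%) held the repeat. Cyp26a1 (chr19:37697558-37697807 on the plus strand) held 1 match on the opposite strand, which ended 15 bases before the start, and Rarb (chr14:16575477-16575726 on the minus strand) held 1 on its own strand, which ended 36 bases before the start. The 3 annotated Dhrs3 windows held none in these letters. Capitals mark the repeat.
Cyp26a1: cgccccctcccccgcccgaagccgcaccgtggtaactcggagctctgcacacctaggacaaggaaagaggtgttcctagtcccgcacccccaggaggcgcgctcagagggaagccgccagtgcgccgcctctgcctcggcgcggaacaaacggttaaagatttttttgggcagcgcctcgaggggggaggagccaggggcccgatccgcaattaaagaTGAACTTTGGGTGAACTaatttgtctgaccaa
Rarb: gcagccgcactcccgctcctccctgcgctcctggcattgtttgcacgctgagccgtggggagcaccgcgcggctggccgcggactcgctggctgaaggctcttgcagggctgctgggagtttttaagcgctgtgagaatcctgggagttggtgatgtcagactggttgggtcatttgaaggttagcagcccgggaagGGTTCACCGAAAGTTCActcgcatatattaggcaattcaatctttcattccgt

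Of the 5 measured genes for degrading retinoic acid or clearing its precursors, 2 were higher in ATRA and 0 lower (0.436% and 0.191% of 19934 genes with 1 probe set each), and the median log2 difference was 0.65, against -0.03 over all genes. Dhrs3 (probe set 10510129), which reduces retinaldehyde to retinol, read 3983, 2265 and 4311 in ATRA replicates 1, 2 and 3, 379.5, 336 and 398 in LE540 and 630.2, 282 and 636 in DMSO. The lowest ATRA array was well above the highest LE540 array, while the DMSO arrays lay on both sides of the LE540 range (log2 difference 3.19, SE 0.34, adjusted p = 0.0123). Cyp26a1 (10462853), the hydroxylase that inactivates retinoic acid and the first of the promoters shown, read 119.7, 132 and 97.1 in ATRA, 56.6, 49.9 and 42.7 in LE540 and 47.9, 54.6 and 43.8 in DMSO (log2 difference 1.22, SE 0.15, adjusted p = 0.0236). Its ATRA arrays were all above, but its LE540 and DMSO values lay below the lower quartile of all probe sets on an array (57.7 to 63.0), where the size of a difference is uncertain. Cyp26b1, a second hydroxylase, read 188, 172 and 245 in ATRA and 130.4, 129 and 122 in LE540 without overlap, and its log2 difference of 0.65 (95% confidence interval 0.33 to 0.97, adjusted p = 0.154) did not pass. Lrat, which esterifies retinol, differed by 0.38 and Cyp26c1 by -0.10; neither passed. Cyp26a1 did not pass in the fit on the 6 ATRA and LE540 arrays alone (adjusted p = 0.12).

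Among 10 receptors and cofactors, 1 gene was higher in ATRA and 0 lower (0.436% and 0.191% of all genes), with a median of 0.23. That gene was Rarb (10417713), the retinoic acid receptor whose promoter holds the response element shown. It read 1524, 668 and 1182 in ATRA, 88.5, 254 and 153 in LE540 and 359, 147 and 212 in DMSO. The ATRA values spread widely but none reached down to the other groups, whose ranges overlapped (log2 difference 2.82, SE 0.46, adjusted p = 0.0595). This call ended without DMSO replicate 3, ATRA replicate 1 or 3 or LE540 replicate 1 (adjusted p = 0.123 to 0.193). Rarg, the receptor of skin and cartilage, read 202, 198 and 211 in ATRA and 133, 151 and 167 in LE540 with the DMSO arrays between, a log2 difference of 0.44 (95% confidence interval 0.21 to 0.68, adjusted p = 0.183). Rara, the receptor found in most tissues, read 161, 162 and 164 in ATRA and 154, 126 and 159.5 in LE540, and its difference was 0.15 (95% confidence interval -0.11 to 0.42, adjusted p = 0.726). Rxra, the partner receptor, differed by 0.14 (95% confidence interval -0.10 to 0.38, adjusted p = 0.721), with all groups overlapping. Rarb did not pass in the fit on the 6 ATRA and LE540 arrays alone (adjusted p = 0.195). Rarb did not pass with the cardiomyocyte score as a covariate (adjusted p = 0.121).

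None of the 14 measured genes for retinoid synthesis, uptake and binding passed in limma. Of these, 2 had an unadjusted p under 0.05, against 9.54% of all probe sets. The list's median of 0.06 was near that of all genes and changed sign in 2 of 15 settings. Aldh1a2, the main enzyme that makes retinoic acid in the embryo, varied widely within groups, with 164, 536 and 130.3 in ATRA and 104, 180.2 and 502 in LE540, a difference of 0.09 (95% confidence interval -1.37 to 1.56, adjusted p = 0.975). Rdh10, which makes retinaldehyde, read 242, 539 and 201 in ATRA and 186, 281 and 346 in LE540 (0.18). The binding proteins Crabp1 (0.04) and Crabp2 (-0.12) and the retinol channel Stra6 (-0.04) overlapped between all groups; the interval of Stra6 ran from -0.25 to 0.18. The largest differences of the list were those of Aldh1a1, with 241, 103 and 575 in ATRA and 108, 139.9 and 118 in LE540 (1.00 (SE 0.55, adjusted p = 0.619)), and of Fabp5, which carries fatty acids and retinoic acid, with 1864, 1432 and 1768 and 910.2, 957 and 843 (0.89 (SE 0.21, adjusted p = 0.192)).

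Of 17 textbook targets of retinoic acid outside its metabolism, 3 were higher in ATRA and 0 lower (0.436% and 0.191% of all genes). The median was 0.28. Tgm2 (10489204), a transglutaminase that crosslinks proteins, had the lowest adjusted p of all probe sets: it read 505, 572 and 609.7 in ATRA, 138, 120.2 and 115 in LE540 and 118, 109.9 and 108 in DMSO, with tight groups (log2 difference 2.18, SE 0.11, adjusted p = 0.000395). Meis2, a homeobox cofactor, read 2019.7, 1329 and 1791 in ATRA, 264, 703 and 599 in LE540 and 1155, 913 and 899 in DMSO, so that the DMSO arrays lay between (log2 difference 1.81, SE 0.34, adjusted p = 0.0927). It did not pass with the replicate block (adjusted p = 0.134), and its call ended without DMSO replicate 1, 2 or 3 or ATRA replicate 1, 2 or 3 (adjusted p = 0.118 to 0.29). Rarres2, the secreted chemoattractant chemerin, read 486, 699 and 622 in ATRA and 230.1, 324 and 172 in LE540 without overlap (log2 difference 1.35, SE 0.24, adjusted p = 0.0823), and was lost without DMSO replicate 1, 2 or 3, ATRA replicate 1, 2 or 3 or LE540 replicate 1 or 3 (adjusted p = 0.101 to 0.245). The 24 Hox genes, anterior members of which respond to retinoic acid in embryos, had no passing member in limma, none at an unadjusted p under 0.05, and no member without overlap between ATRA and LE540. Hoxa2 (0.40) and Hoxb4 (0.29) had the largest differences. Meis2 and Rarres2 did not pass in the fit on the 6 ATRA and LE540 arrays alone (adjusted p = 0.325 and 0.255). Meis2 and Rarres2 did not pass with the cardiomyocyte score as a covariate (adjusted p = 0.151 and 0.183). Meis2 did not pass once the Y-linked score was added (adjusted p = 0.119).

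The values by array of 16 genes show how the groups lie. For Tgm2, Pparg and Fap the LE540 and DMSO points fall together and ATRA stands above, for Tgfb3 and Heg1 the DMSO points fall between, and for Scd1 the DMSO and ATRA points overlap above LE540. Over the 96 probe sets higher in ATRA, the DMSO arrays overlapped only the LE540 arrays in 43, only the ATRA arrays in 13 and both in 1, and lay between without overlap in 39. Over the 45 higher in LE540, DMSO overlapped only ATRA in 25 and only LE540 in 7, lay between in 10 and outside both in 3 (Chac1, Nars and Nnmt, the last named after its values were seen).

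**Figure D3:**
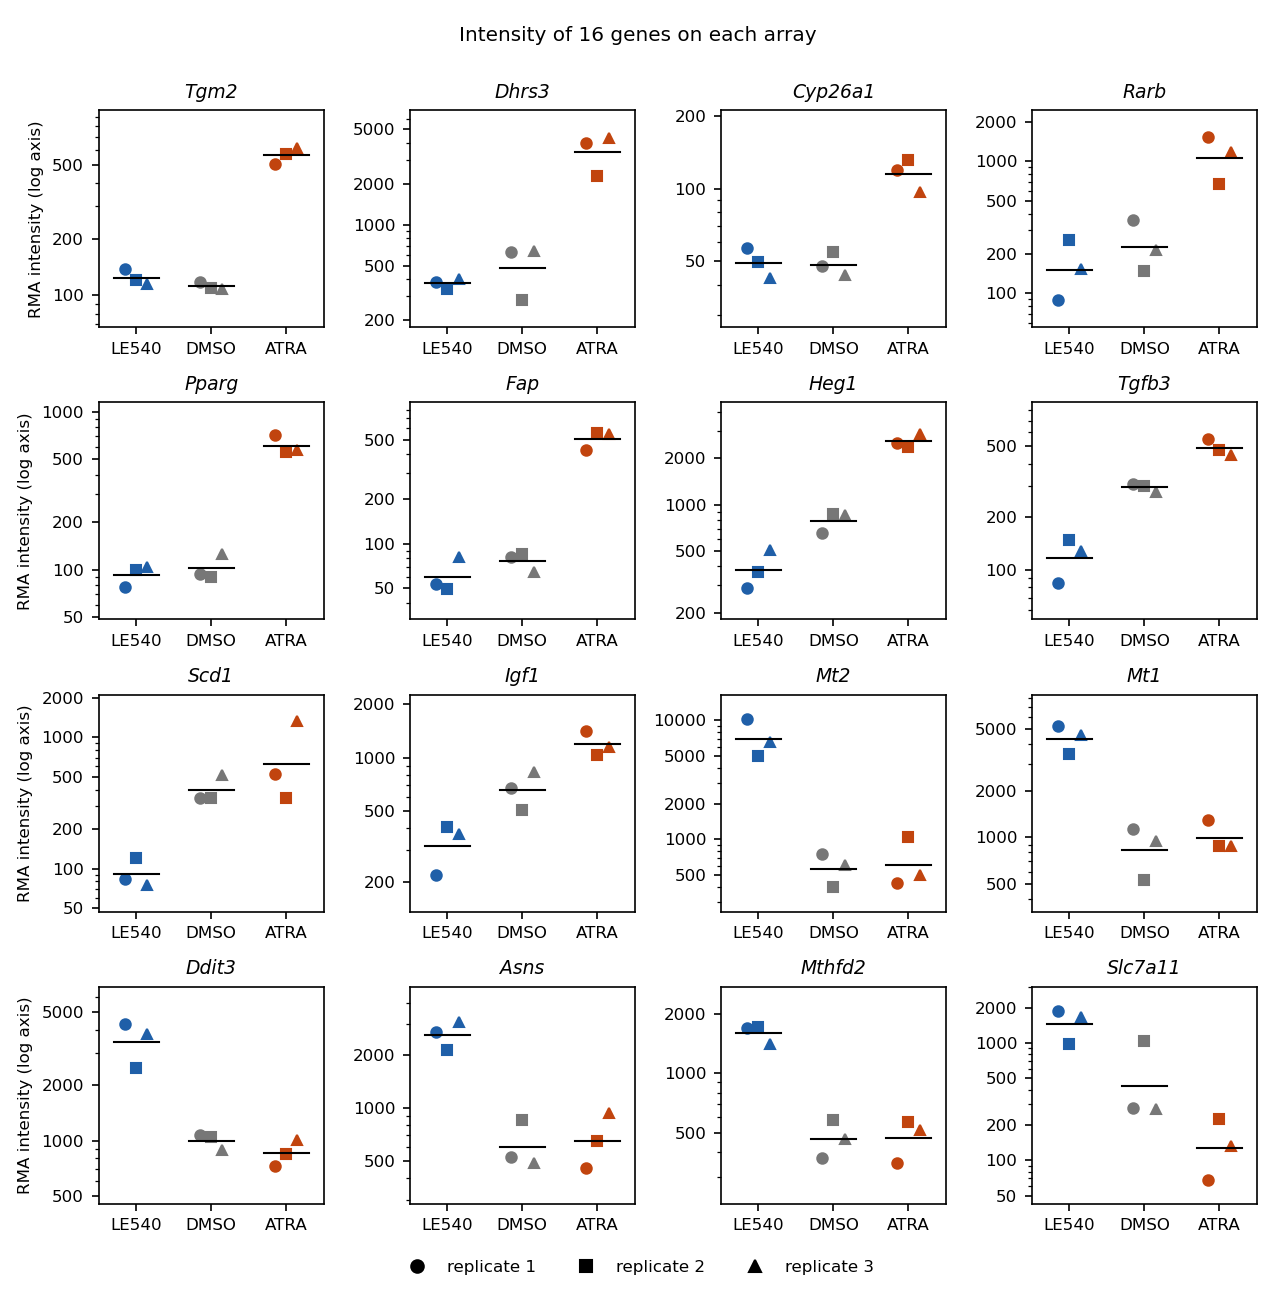
Each panel gives 1 gene, with the RMA intensity of every array on a log axis and the mean of the log values as a line, for LE540 (blue), DMSO (grey) and ATRA (orange); circles, squares and triangles are replicates 1, 2 and 3. In every panel the 3 orange and the 3 blue points do not overlap.

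Olr1 (10548385), the scavenger receptor for oxidised low density lipoprotein, read 500.1, 751 and 341 in ATRA, 55.7, 48.9 and 41.5 in LE540 and 74.0, 190.3 and 53.5 in DMSO, and the LE540 values were below the lower quartile of their arrays (log2 difference 3.38, SE 0.45, adjusted p = 0.0269). This call ended without ATRA replicate 1 (adjusted p = 0.1004). Piezo2 (10459335), a mechanically gated cation channel, read 1286, 703 and 1375 in ATRA, 83.9, 135 and 131 in LE540 and 108, 220.2 and 125 in DMSO (log2 difference 3.23, SE 0.34, adjusted p = 0.0123). Its other 2 probe sets gave 3.00 and 1.92, so all 3 had the same direction. Fap (10483081), a serine protease on activated fibroblasts, read 431, 560.5 and 550.4 in ATRA, 53.2, 49.4 and 82.0 in LE540 and 80.8, 85.1 and 64.3 in DMSO. Every ATRA array was far above all others (log2 difference 3.09, SE 0.21, adjusted p = 0.00138). The Fap values in LE540 replicates 1 and 2 were below the lower quartile of their arrays (62.95 and 57.96), so the size of its difference is uncertain. Heg1 (10435271), a transmembrane protein that vessels and the heart wall need to form, read 2529.8, 2359 and 2878 in ATRA, 289, 369 and 508 in LE540 and 659, 874 and 855 in DMSO, in 3 separate levels (log2 difference 2.77, SE 0.21, adjusted p = 0.0023). A second Heg1 probe set differed by 1.09 (adjusted p = 0.0150). It did not show 3 levels: DMSO (192, 230 and 226) overlapped LE540 (187, 209 and 183). Cd24a, a glycoprotein of immature cells, read 4742, 4561 and 3503 in ATRA and 1295, 749 and 839 in LE540, with DMSO overlapping LE540 (log2 difference 2.18, SE 0.23, adjusted p = 0.0123).

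Cp, the copper-carrying ferroxidase ceruloplasmin, read 713, 486 and 790.4 in ATRA, 111, 73.5 and 131 in LE540 and 220.0, 179 and 246 in DMSO, with DMSO between (log2 difference 2.67, SE 0.25, adjusted p = 0.00791). Enpp3, an enzyme that splits extracellular nucleotides, read 344, 623 and 281 in ATRA and 78.4, 69.6 and 45.2 in LE540, and DMSO overlapped LE540 (log2 difference 2.64, SE 0.30, adjusted p = 0.0163). The Enpp3 value in LE540 replicate 3 was below the lower quartile of that array (58.38). Csn3, kappa casein, read 73.4, 75.7 and 131 in ATRA, 19.5, 19.7 and 17.0 in LE540 and 18.4, 14.9 and 18.1 in DMSO. All LE540 and DMSO values were far below the lower quartile of their arrays, so the size of its difference is uncertain (log2 difference 2.27, SE 0.22, adjusted p = 0.00791). Efemp1, the matrix protein fibulin-3, read 591, 204 and 611 in ATRA and 78.4, 106 and 58.5 in LE540; ATRA replicate 2 was the lowest of its group (log2 difference 2.42, SE 0.46, adjusted p = 0.0957), and the call ended without DMSO replicate 1, 2 or 3, ATRA replicate 1 or 3 or LE540 replicate 1 or 3 (adjusted p = 0.118 to 0.298). Krt18, a keratin of simple epithelia, read 293, 362 and 235 in ATRA and 70.0, 103 and 76.3 in LE540 (log2 difference 1.83, SE 0.25, adjusted p = 0.0313) and was lost without ATRA replicate 1 or LE540 replicate 1 (adjusted p = 0.107 and 0.105). Enpp3 and Efemp1 did not pass in the fit on the 6 ATRA and LE540 arrays alone (adjusted p = 0.115 and 0.26). Efemp1 and Krt18 did not pass with the cardiomyocyte score as a covariate (adjusted p = 0.219 and 0.101). Efemp1 did not pass once the Y-linked score was added (adjusted p = 0.14).

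**Figure D4:**
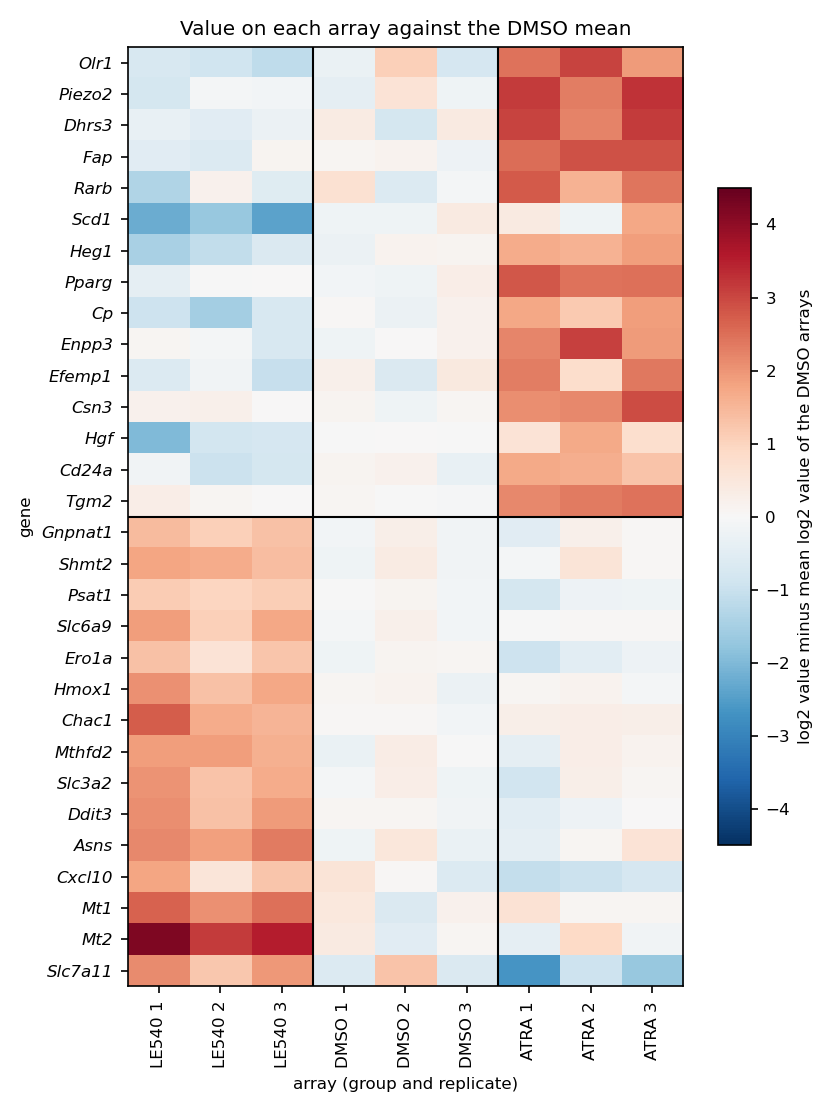
Rows are the 15 genes with the largest excess in ATRA (top) and the 15 with the largest excess in LE540 (bottom), and columns are the 9 arrays by group and replicate. Colour is the log2 value minus the mean log2 value of the DMSO arrays, so white is the DMSO level; Scd1 is below white in LE540, and Mt2 is the darkest red in LE540.

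Pparg (10540897), a nuclear receptor at the head of fat cell formation, read 715, 558 and 570.3 in ATRA, 77.5, 99.8 and 105 in LE540 and 94.2, 89.9 and 126 in DMSO, with LE540 and DMSO overlapping (log2 difference 2.71, SE 0.18, adjusted p = 0.00138). It was the 1 gene of 16 in the adipogenic list that passed, against 0.436% of all genes higher in ATRA. The list's median was -0.03 and changed sign in 4 of 15 settings, and 8 members had a positive and 8 a negative difference. Of the genes of mature fat cells, Plin1, which coats lipid droplets, differed by 0.06 and Fabp4, a fatty acid carrier, by 0.75. Adipoq, the hormone adiponectin, read 23.8, 23.3 and 24.1 in ATRA and 27.4, 24.4 and 24.8 in LE540, below the lower quartile of every array. None of these 3 passed. Scd1 (10467979), which desaturates fatty acids, read 529.5, 344 and 1324 in ATRA, 83.8, 119.8 and 75.2 in LE540 and 344, 347 and 518 in DMSO: the LE540 arrays were low and ATRA overlapped DMSO (log2 difference 2.77, SE 0.44, adjusted p = 0.0539). This call ended without DMSO replicate 1, 2 or 3, ATRA replicate 1 or LE540 replicate 1 (adjusted p = 0.105 to 0.179). Of 18 genes for cholesterol synthesis and uptake, 17 had a positive difference, where 43.6% of all genes did. None of them passed in limma (6 at an unadjusted p under 0.05, against 9.54% of all probe sets), and 1 passed with the replicate block. In 4 ATRA was higher without overlap, against 5.24% of all probe sets. The list's median was 0.69 and ranged from 0.24 to 1.05 with 1 array left out. Idi1, an isomerase of the mevalonate pathway, read 99.8, 175 and 340.0 in ATRA, 39.7, 108 and 31.2 in LE540 and 126, 194 and 159 in DMSO (1.82 (SE 0.53, adjusted p = 0.295)). Its values in LE540 replicates 1 and 3 were below the lower quartile of their arrays (62.95 and 58.38). Fdft1, squalene synthase, read 644, 978 and 1114 in ATRA, 330.3, 517 and 392 in LE540 and 357, 644 and 676 in DMSO (1.13 (SE 0.30, adjusted p = 0.248)). Scd1 did not pass in the fit on the 6 ATRA and LE540 arrays alone (adjusted p = 0.239). Scd1 did not pass with the cardiomyocyte score as a covariate (adjusted p = 0.121).

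Of 29 genes of TGF-beta, activin and BMP signalling, 3 were higher in ATRA and 0 lower, against 0.436% and 0.191% of all genes. A total of 21 had a positive difference, against 43.6% of all genes, and the list's median was 0.34. Among the ligands, Tgfb3 (10401673) read 554, 475 and 448 in ATRA, 84.3, 149 and 128 in LE540 and 306, 299.9 and 276 in DMSO, 3 levels without overlap (log2 difference 2.07, SE 0.20, adjusted p = 0.00791). Bmp2 (10476395) read 508, 709 and 536 in ATRA, 221, 167 and 191 in LE540 and 222, 297 and 153 in DMSO, with DMSO overlapping LE540 (log2 difference 1.59, SE 0.24, adjusted p = 0.0456), and was lost without DMSO replicate 1, ATRA replicate 1, 2 or 3 or LE540 replicate 1 (adjusted p = 0.101 to 0.136). Inhba, the activin A subunit, had a difference of like size that varied more between arrays, 2.15 (SE 0.57, adjusted p = 0.248). Smad3 (10594404), which carries the TGF-beta signal to the nucleus, read 534, 532 and 661 in ATRA, 223, 259 and 234 in LE540 and 312, 358 and 346 in DMSO, again with DMSO between (log2 difference 1.26, SE 0.12, adjusted p = 0.00791). Tgfb1 (-0.17), the receptor gene Tgfbr1 (-0.18) and Bmp4 (-0.18) had small negative differences that did not pass. Bmp2 did not pass with the cardiomyocyte score as a covariate (adjusted p = 0.121).

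Igf1 (10365559), a growth factor acting through Igf1r, read 1416, 1031 and 1145 in ATRA, 217, 403 and 369 in LE540 and 677, 507 and 831 in DMSO, in 3 separate levels (log2 difference 1.90, SE 0.26, adjusted p = 0.0357); it was lost without ATRA replicate 1 or ATRA replicate 3 (adjusted p = 0.118 and 0.119). It was the 1 of 11 IGF genes that passed, against 0.436% of all genes higher in ATRA, and the list's median was 0.46. Hgf (10519857), the ligand of the Met receptor, read 304, 644 and 338 in ATRA, 50.9, 113 and 117 in LE540 and 197, 204 and 198 in DMSO, with DMSO nearly constant between the others (log2 difference 2.21, SE 0.36, adjusted p = 0.0589), and was lost without DMSO replicate 1, 2 or 3, ATRA replicate 1 or 3 or LE540 replicate 1 (adjusted p = 0.101 to 0.145). The Hgf value in LE540 replicate 1 was below the lower quartile of that array (62.95). In the Wnt list 1 of 34 passed, higher in ATRA, against 0.436% of all genes. This was Lgr6, a receptor for R-spondins (log2 difference 0.67, SE 0.10, adjusted p = 0.0451). Lgr6 read 210.3, 201 and 229.6 in ATRA and 147, 128 and 128 in LE540. It was lost without ATRA replicate 1, ATRA replicate 3 or DMSO replicate 3 (adjusted p = 0.118, 0.16 and 0.105). None of 14 Notch genes passed in limma (3 at an unadjusted p under 0.05, against 9.54% of all probe sets). A total of 11 had a positive difference, against 43.6% of all genes, and the list's median was 0.33. Hes1 (0.64) and Heyl (0.50), both Notch targets, differed most. Of 24 valve mesenchyme transcription factors 2 were higher in ATRA and 0 lower (0.436% and 0.191% of all genes), with a median of 0.12. Twist2 read 411, 315 and 299 in ATRA and 169.8, 199 and 166 in LE540 (log2 difference 0.93, SE 0.14, adjusted p = 0.0526), lost without DMSO replicate 1 or 3, ATRA replicate 1 or LE540 replicate 1 (adjusted p = 0.107 to 0.158). Foxc2 read 1411, 1212 and 1149.6 and 839.6, 744 and 560.1 (log2 difference 0.83, SE 0.16, adjusted p = 0.0934), lost without DMSO replicate 1, 2 or 3, ATRA replicate 1, 2 or 3 or LE540 replicate 2 (adjusted p = 0.115 to 0.278). Igf1, Hgf, Lgr6, Twist2 and Foxc2 did not pass in the fit on the 6 ATRA and LE540 arrays alone (adjusted p = 0.126 to 0.334). Lgr6, Twist2 and Foxc2 did not pass with the cardiomyocyte score as a covariate (adjusted p = 0.117 to 0.214). Foxc2 did not pass once the Y-linked score was added (adjusted p = 0.12).

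Few genes of the matrix lists passed, and some matrix genes that passed outside these lists are given at the end. Vcan (10410931), the large proteoglycan versican of the valve's spongy layer, read 3696, 2036 and 2408 in ATRA, 1050.3, 1223 and 973 in LE540 and 1332, 1636 and 1265 in DMSO (log2 difference 1.29, SE 0.21, adjusted p = 0.0608). It was the 1 of 22 proteoglycan and hyaluronan genes that passed, against 0.436% of all genes higher in ATRA. With the replicate block 3 passed, and the list's median was 0.26. Vcan was lost without DMSO replicate 1, 2 or 3, ATRA replicate 3 or LE540 replicate 1 or 3 (adjusted p = 0.101 to 0.192). Ogn, osteoglycin, had the largest difference of the list but varied between arrays, with 764, 308 and 1759 in ATRA and 40.8, 82.8 and 178 in LE540 (3.14 (SE 0.73, adjusted p = 0.179)). The Ogn value in LE540 replicate 1 was below the lower quartile of that array (62.95). Of 16 elastic fibre genes 1 passed, Efemp1 as above, where 0.436% of all genes were higher in ATRA. With the replicate block 2 passed, and the list's median was 0.49. Of 25 matrix proteases and inhibitors 24 had a positive difference, against 43.6% of all genes. In this list 1 passed, Fap, against 0.436% of all genes higher in ATRA (2 with the replicate block, list median 0.39). None of 18 collagens passed in limma (3 at an unadjusted p under 0.05, against 9.54% of all probe sets) and their median was 0.11. The largest differences were those of Col8a1 (1.24) and Col14a1 (0.88). Crosslinking enzymes (median 0.15) were led by Lox (1.03) and P4ha3 (0.85). Of the 14 in this list 0 passed and 4 had an unadjusted p under 0.05, against 9.54% of all probe sets. The lists read only probe sets with 1 symbol. A probe set shared by the lysyl oxidase Loxl2 and Gm21451, named after its values were seen, was higher in ATRA (1.56, SE 0.19, adjusted p = 0.0185). Matricellular genes (median 0.33) were led by Thbs2 (1.38) and Thbs1 (1.31). Of these 18 genes 0 passed, and 1 passed with the replicate block. In this list 7 had an unadjusted p under 0.05, against 9.54% of all probe sets. Of 18 contractile genes 17 had a positive difference (median 0.40), against 43.6% of all genes. None of the 18 passed in limma, and 2 passed with the replicate block. Of these genes 7 had an unadjusted p under 0.05, against 9.54% of all probe sets. Myl9, a myosin light chain, read 1479.5, 1449 and 3539 in ATRA and 546, 1133 and 641 in LE540 (1.42 (SE 0.43, adjusted p = 0.327)), and Cnn2, a calponin, 406, 316 and 727 and 138, 155 and 222 (1.43 (SE 0.33, adjusted p = 0.179)). Vcan did not pass in the fit on the 6 ATRA and LE540 arrays alone (adjusted p = 0.239). Vcan did not pass with the cardiomyocyte score as a covariate (adjusted p = 0.152).

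**Figure D5:**
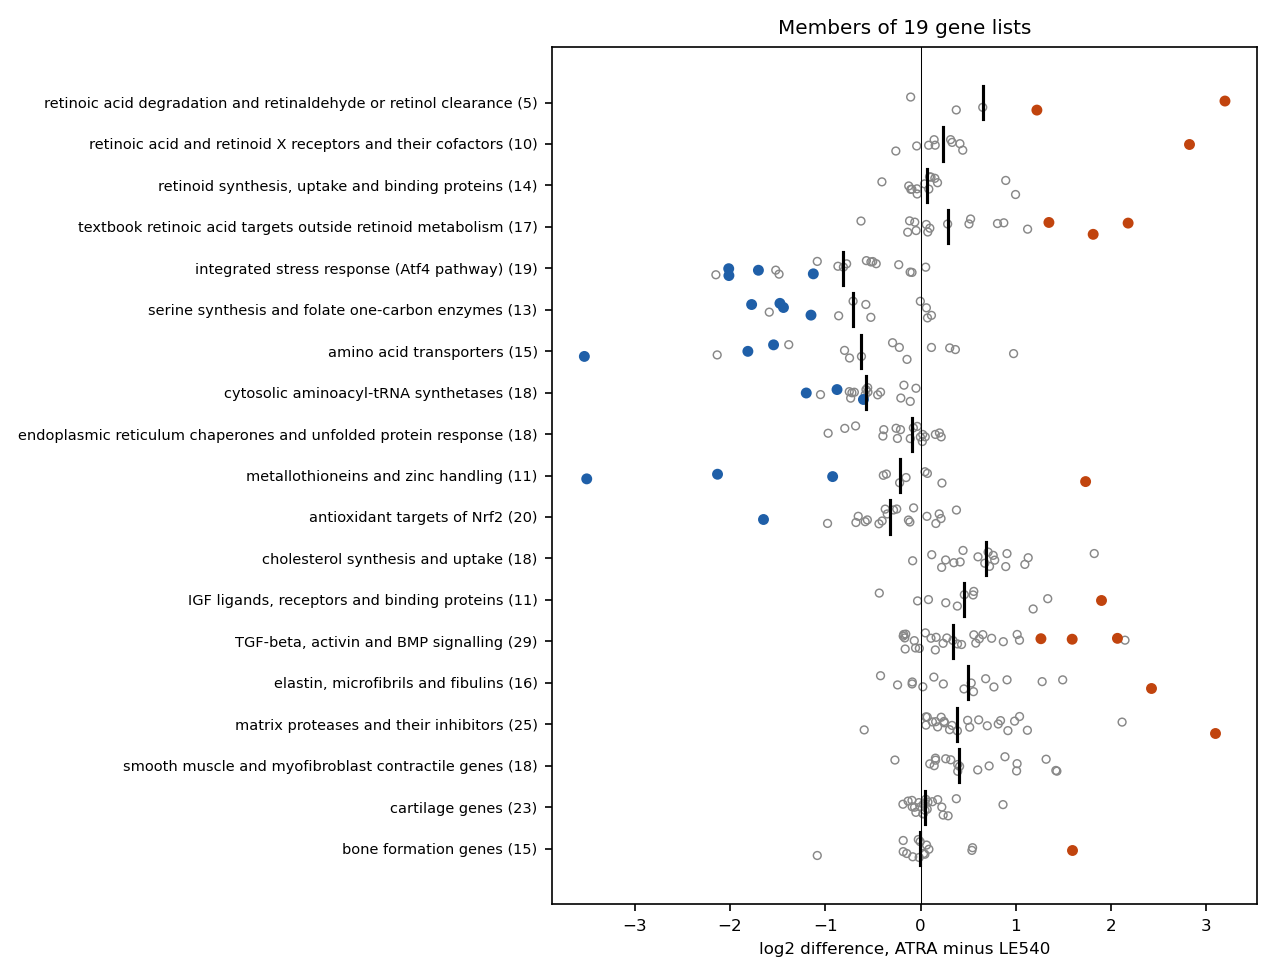
Each point is a gene of 1 of 19 lists, placed by its log2 difference of ATRA minus LE540 (horizontal axis), with the number of measured genes after the list's name. Filled points passed (orange higher in ATRA, blue higher in LE540), open points did not, and black ticks are medians. The integrated stress response, serine and folate, transporter and tRNA synthetase lists have the lowest medians. Those of the chaperone, metal, Nrf2 and bone lists are also negative.

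None of 23 cartilage genes passed in limma, none had an unadjusted p under 0.05, none lacked overlap between ATRA and LE540, and the median was 0.04. Sox9, the regulator of cartilage and valve progenitors, read 772, 603 and 587 in ATRA, 499, 539 and 638 in LE540 and 819, 643 and 677 in DMSO, a log2 difference of 0.22 (95% confidence interval -0.12 to 0.57, adjusted p = 0.698). Acan, aggrecan, differed by 0.29 (95% confidence interval -0.55 to 1.13, adjusted p = 0.848). Col2a1, the cartilage collagen, differed by 0.03 (95% confidence interval -0.16 to 0.22, adjusted p = 0.935). Prg4 (0.87) and Col11a1 (0.38) were the largest of the list. Of 15 bone formation genes 1 was higher in ATRA, Bmp2 as above, against 0.436% of all genes. The median was 0.00 and changed sign in 6 of 15 settings. Alpl, the phosphatase of mineralising cells, read 136, 262 and 115 in ATRA and 112, 118 and 100.1 in LE540, with ATRA replicate 2 above the others, and differed by 0.55 (95% confidence interval -0.06 to 1.15, adjusted p = 0.574). Of 10 genes that restrain mineral deposition or handle pyrophosphate 1 passed, Enpp3 as above, against 0.436% of all genes higher in ATRA. Mgp, matrix Gla protein, read 8584, 9459.7 and 9331 in ATRA, 4986, 8338 and 8823 in LE540 and 9440.2, 9007 and 9457 in DMSO, and the lowest array was LE540 replicate 1 (0.35 (95% confidence interval -0.10 to 0.79, adjusted p = 0.625)).

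The integrated stress response slows translation when amino acids or protein folding fail and raises the factor Atf4, which turns on genes for amino acid supply. Of 19 measured genes of this response 4 were higher in LE540 and 0 in ATRA (6 with the replicate block, 3 without LE540 replicate 1), and 15 did not pass. Of all genes, 0.191% passed with higher values in LE540. A total of 18 list members had a negative difference where 56.3% of all genes did. In 15 ATRA was lower without overlap, against 6.24% of all probe sets, and the list's median was -0.81. Ddit3 (10366881), the transcription factor CHOP, read 4292, 2476 and 3787 in LE540 replicates 1, 2 and 3, 725, 844 and 1005 in ATRA and 1068, 1049 and 888 in DMSO. The LE540 arrays stood alone, and ATRA and DMSO overlapped (log2 difference -2.01, SE 0.21, adjusted p = 0.0123). Asns (10543067), asparagine synthetase, read 2723, 2143 and 3079 in LE540, 455, 644 and 933 in ATRA and 524, 856 and 486 in DMSO (log2 difference -2.01, SE 0.30, adjusted p = 0.0451), lost without ATRA replicate 1 or LE540 replicate 1 (adjusted p = 0.108 and 0.143). Chac1 (10474972), which breaks down glutathione, read 1251, 613 and 546 in LE540, 226, 235 and 229 in ATRA and 199.7, 199 and 175 in DMSO. LE540 replicate 1 was the highest, and DMSO lay below both groups (log2 difference -1.70, SE 0.27, adjusted p = 0.0537); the call ended without DMSO replicate 1, 2 or 3 or ATRA replicate 1, 2 or 3 (adjusted p = 0.106 to 0.166). Gpt2, a transaminase, read 287, 168 and 157 in LE540 and 91.4, 88.1 and 90.9 in ATRA (log2 difference -1.13, SE 0.20, adjusted p = 0.0823), lost without DMSO replicate 1, 2 or 3 or ATRA replicate 1, 2 or 3 (adjusted p = 0.143 to 0.229). Atf4 itself read 1629, 1248 and 1274 in LE540, 429, 825 and 769 in ATRA and 552, 808 and 567 in DMSO without overlap between LE540 and ATRA, and its difference of -1.08 (95% confidence interval -1.68 to -0.49, adjusted p = 0.192) did not pass. Asns, Chac1 and Gpt2 did not pass in the fit on the 6 ATRA and LE540 arrays alone (adjusted p = 0.126 to 0.321). Gpt2 did not pass with the cardiomyocyte score as a covariate (adjusted p = 0.121). Gpt2 did not pass once the Y-linked score was added (adjusted p = 0.112).

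The promoters of Asns and Chac1 are shown because they hold the core of the amino acid response element, TGATGNAA, which Atf4 is known to bind with a partner. The core was found on either strand in 1134 of 32851 promoters (3.45%), and in 2 of the 8 passing genes of the stress and serine lists. In Asns (chr6:7693210-7693459 on the minus strand) it ended 15 bases before the start, and in Chac1 (chr2:119350992-119351241 on the plus strand) it lay on the opposite strand, 185 bases before the start. Capitals mark the core.
Asns: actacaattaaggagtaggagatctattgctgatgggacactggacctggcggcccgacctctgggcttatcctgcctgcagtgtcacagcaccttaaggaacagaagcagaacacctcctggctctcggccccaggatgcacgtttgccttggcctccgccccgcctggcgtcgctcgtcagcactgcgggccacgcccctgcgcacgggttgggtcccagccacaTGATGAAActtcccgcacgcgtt
Chac1: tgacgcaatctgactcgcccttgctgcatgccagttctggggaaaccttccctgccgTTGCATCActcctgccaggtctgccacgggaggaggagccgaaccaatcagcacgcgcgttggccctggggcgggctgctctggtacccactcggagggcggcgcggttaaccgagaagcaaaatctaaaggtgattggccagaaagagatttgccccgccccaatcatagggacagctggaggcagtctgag

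Of 13 enzymes that make serine or feed one-carbon units into folate, 4 were higher in LE540, against 0.191% of all genes. In this list 0 were higher in ATRA and 9 did not pass. A total of 10 had a negative difference, against 56.3% of all genes, 3 had a positive difference, and the median was -0.71. Mthfd2 (10545672), a mitochondrial folate dehydrogenase, read 1701, 1717 and 1408 in LE540, 351, 571 and 515 in ATRA and 374, 582 and 464 in DMSO (log2 difference -1.77, SE 0.22, adjusted p = 0.0185). Psat1 (10466410), the second enzyme of serine synthesis, read 835, 746 and 816 in LE540, 219.9, 327 and 329 in ATRA and 376, 414 and 350.3 in DMSO, with DMSO between (log2 difference -1.48, SE 0.16, adjusted p = 0.0139). Shmt2, which splits serine in mitochondria, read 1589.8, 1452 and 1196 in LE540 and 429, 683 and 473 in ATRA (log2 difference -1.44, SE 0.22, adjusted p = 0.0472), lost without DMSO replicate 3, ATRA replicate 1 or 3 or LE540 replicate 1 (adjusted p = 0.108 to 0.163). Phgdh, the first enzyme of the pathway, read 565, 434 and 356 in LE540 and 218, 169 and 217 in ATRA (log2 difference -1.15, SE 0.18, adjusted p = 0.0472). This call was lost without DMSO replicate 1 or 3 or ATRA replicate 1, 2 or 3 (adjusted p = 0.102 to 0.132). A probe set shared by Phgdh and Gm6756 had a smaller difference (-0.61, adjusted p = 0.0549). The cytosolic counterpart Shmt1 overlapped between the groups, with 147, 128 and 108 in LE540 and 145, 127 and 110.0 in ATRA. Psat1, Shmt2 and Phgdh did not pass in the fit on the 6 ATRA and LE540 arrays alone (adjusted p = 0.101 to 0.239). Shmt2 did not pass with the cardiomyocyte score as a covariate (adjusted p = 0.121).

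Of 15 amino acid transporters 3 were higher in LE540 (1 without LE540 replicate 1), against 0.191% of all genes, and 0 were higher in ATRA. A total of 12 did not pass, 4 had a positive difference, and the median was -0.62. Slc7a11 (10498024), the cystine and glutamate exchanger, read 1889.6, 989 and 1658 in LE540, 68.1, 223 and 133 in ATRA and 281, 1039 and 271 in DMSO. It had the largest negative difference of all passing probe sets, but DMSO replicate 2 reached the LE540 range (log2 difference -3.53, SE 0.58, adjusted p = 0.0608), and its call ended without DMSO replicate 1 or 3, ATRA replicate 1 or 3 or LE540 replicate 1 or 3 (adjusted p = 0.101 to 0.21). Slc3a2, the heavy chain that brings this exchanger to the membrane, read 3125, 1863 and 2433 in LE540 and 426, 935 and 821 in ATRA (log2 difference -1.81, SE 0.31, adjusted p = 0.0619), lost without DMSO replicate 1, 2 or 3, ATRA replicate 1 or 3 or LE540 replicate 1 or 3 (adjusted p = 0.101 to 0.207). Slc6a9, a glycine transporter, read 748, 433 and 686 in LE540, 200.3, 211 and 212 in ATRA and 192, 238 and 188 in DMSO, with ATRA and DMSO overlapping (log2 difference -1.54, SE 0.20, adjusted p = 0.0239). Slc7a11, Slc3a2 and Slc6a9 did not pass in the fit on the 6 ATRA and LE540 arrays alone (adjusted p = 0.115 to 0.245). Slc7a11 and Slc3a2 did not pass with the cardiomyocyte score as a covariate (adjusted p = 0.142 and 0.152). Slc3a2 did not pass once the Y-linked score was added (adjusted p = 0.106).

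All 18 measured cytosolic tRNA synthetase genes, which charge tRNAs with amino acids, had a negative difference in this fit, against 56.3% of all genes. In 12 of them ATRA was lower without overlap, against 6.24% of all probe sets. A total of 3 passed (0 without LE540 replicate 1), against 0.191% of all genes. The list's median was -0.58. Sars, for serine, read 3572, 2742 and 3162 in LE540 and 944, 1503 and 1802 in ATRA (log2 difference -1.20, SE 0.22, adjusted p = 0.0847), lost without DMSO replicate 1, 2 or 3, ATRA replicate 2 or LE540 replicate 1 or 3 (adjusted p = 0.115 to 0.263). Cars, for cysteine, read 583, 539.5 and 597 in LE540 and 259, 332 and 354 in ATRA (log2 difference -0.88, SE 0.15, adjusted p = 0.0696), lost without DMSO replicate 1 or 3, ATRA replicate 1, 2 or 3 or LE540 replicate 1 or 3 (adjusted p = 0.106 to 0.204). Nars, for asparagine, read 3905, 3334 and 4100.2 in LE540 and 2341, 2567 and 2556 in ATRA (log2 difference -0.60, SE 0.11, adjusted p = 0.0764). It did not pass with the replicate block (adjusted p = 0.1048) and was lost without DMSO replicate 1, 2 or 3, ATRA replicate 1, 2 or 3 or LE540 replicate 1 or 3 (adjusted p = 0.106 to 0.226). None of 18 endoplasmic reticulum chaperone genes passed in limma, and their median was -0.09. Of these genes 3 had an unadjusted p under 0.05, against 9.54% of all probe sets. Herpud1 (-0.80) and Dnajb9 (-0.97) differed most, the latter with 1689, 443 and 637 in LE540, where replicate 1 was far above the rest. Hspa5, the chaperone BiP, differed by -0.40. Ero1a, an oxidase of the same compartment outside that list, read 1832, 1124 and 1744 in LE540, 381, 529.7 and 623 in ATRA and 632, 797 and 766 in DMSO (log2 difference -1.61, SE 0.23, adjusted p = 0.0401), lost without ATRA replicate 1 or LE540 replicate 1 (adjusted p = 0.1004 and 0.13). Gnpnat1, an enzyme of amino sugar synthesis, read 2809.6, 2215 and 2617 in LE540 and 749, 1233 and 1083 in ATRA (log2 difference -1.34, SE 0.20, adjusted p = 0.0451), lost without ATRA replicate 3 or LE540 replicate 1 (adjusted p = 0.126 and 0.144). Sars, Cars, Nars, Ero1a and Gnpnat1 did not pass in the fit on the 6 ATRA and LE540 arrays alone (adjusted p = 0.178 to 0.323). Sars, Cars, Nars and Gnpnat1 did not pass with the cardiomyocyte score as a covariate (adjusted p = 0.121 to 0.168). Sars, Cars and Nars did not pass once the Y-linked score was added (adjusted p = 0.104 to 0.124).

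The promoters of Mt1 and Mt2, metallothioneins that bind zinc and copper, are shown because they hold the core of the metal response element (TGCACNC or TGCGCNC), the site of the zinc-sensing factor Mtf1. This short core was found on either strand in 7032 of 32851 promoters (21.4%), and in 3 of the 4 passing metal genes. Mt1 (chr8:94178839-94179088 on the plus strand) held 1 match and Mt2 (chr8:94172368-94172617 on the plus strand) held 3, 1 of them on the opposite strand. Slc30a1 held 1 and Slc39a10 none. Capitals mark the core.
Mt1: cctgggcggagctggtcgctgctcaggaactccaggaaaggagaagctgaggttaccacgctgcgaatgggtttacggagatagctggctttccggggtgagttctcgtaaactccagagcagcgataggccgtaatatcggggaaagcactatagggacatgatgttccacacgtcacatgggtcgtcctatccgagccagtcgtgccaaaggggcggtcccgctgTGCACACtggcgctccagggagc
Mt2: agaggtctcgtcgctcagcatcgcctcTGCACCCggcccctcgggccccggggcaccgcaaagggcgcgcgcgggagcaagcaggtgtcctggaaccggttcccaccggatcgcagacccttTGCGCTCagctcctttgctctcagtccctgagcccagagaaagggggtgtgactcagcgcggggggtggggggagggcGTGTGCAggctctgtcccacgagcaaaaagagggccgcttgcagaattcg

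Of 11 metallothionein and zinc genes 3 were higher in LE540 and 1 in ATRA (0.191% and 0.436% of all genes), with a median of -0.22. Without LE540 replicate 1 the count higher in LE540 was 1. Mt2 (10574023) read 10311, 4997 and 6561 in LE540, 433, 1058 and 506 in ATRA and 758, 396 and 606 in DMSO. LE540 replicate 1 was the highest, and even the lowest LE540 array was well above ATRA and DMSO, which overlapped (log2 difference -3.50, SE 0.39, adjusted p = 0.015). Mt1 (10574027) read 5250.0, 3449 and 4582 in LE540, 1289.7, 874 and 877 in ATRA and 1139, 530.4 and 944 in DMSO, in the same arrangement (log2 difference -2.13, SE 0.29, adjusted p = 0.0347), and was lost without ATRA replicate 3 or LE540 replicate 1 (adjusted p = 0.131 and 0.116). Both genes lie side by side on chromosome 8 and are close relatives, so some sharing of signal between their probes cannot be told apart from separate levels. Slc30a1, a zinc exporter, read 509, 493 and 574 in LE540 and 234, 298 and 303 in ATRA (log2 difference -0.92, SE 0.13, adjusted p = 0.0401), lost without LE540 replicate 1 (adjusted p = 0.101). Slc39a10, a zinc importer, went the other way, with 225, 390.5 and 293 in LE540, 1182, 936 and 852 in ATRA and 871, 762 and 604 in DMSO (log2 difference 1.73, SE 0.22, adjusted p = 0.0243). Mtf1 differed by -0.22 and Mt3, the metallothionein of brain, by 0.07, and neither passed. Slc30a1 and Slc39a10 did not pass in the fit on the 6 ATRA and LE540 arrays alone (adjusted p = 0.168 and 0.115). Mt1 and Slc30a1 did not pass with the cardiomyocyte score as a covariate (adjusted p = 0.108 and 0.117).

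Hmox1 (10572897), which breaks down heme under oxidative stress, read 4150.3, 2514 and 3405 in LE540, 1060.3, 1139 and 947 in ATRA and 1083, 1139 and 832 in DMSO, with ATRA and DMSO overlapping (log2 difference -1.65, SE 0.19, adjusted p = 0.0171). It was the 1 of 20 antioxidant targets of Nrf2 that passed, against 0.191% of all genes higher in LE540. A total of 15 had a negative difference, against 56.3% of all genes, and the median was -0.32. Of the 20, 7 had an unadjusted p under 0.05, against 9.54% of all probe sets. In 9 ATRA was lower without overlap, against 6.24% of all probe sets. Classical members did not pass, among them Nqo1 (-0.35), Gclm (-0.68) and Txnrd1 (-0.37). Cxcl10, a chemokine that draws T cells, read 539, 226 and 374 in LE540, 74.3, 80.2 and 93.0 in ATRA and 235, 162 and 102 in DMSO, and DMSO overlapped LE540 (log2 difference -2.12, SE 0.36, adjusted p = 0.0614). It was lost without DMSO replicate 2, ATRA replicate 1, 2 or 3 or LE540 replicate 1 or 3 (adjusted p = 0.101 to 0.199). It was the 1 of 24 cytokine genes that passed, where 0.191% of all genes were higher in LE540. With the replicate block 2 were higher in LE540 and 1 in ATRA. The list's median of -0.10 turned to 0.04 without LE540 replicate 1. None passed in limma among 13 interferon-stimulated genes (Ifit1 -1.47, Ifit2 0.53), 14 p53 targets (Fas 0.91, Btg2 -0.62), 16 hypoxia genes (Adm 0.94, Ndrg1 -0.94) and 7 aryl hydrocarbon receptor targets (Cyp1b1 0.88, Aldh3a1 -0.18), for which the 2 largest differences are given. At an unadjusted p under 0.05 these lists had 0, 3, 1 and 0 members, against 9.54% of all probe sets. Of 17 immediate early genes 16 had a negative difference (median -0.44), against 56.3% of all genes. None of the 17 passed and 8 had an unadjusted p under 0.05, against 9.54% of all probe sets. Ier2 differed by -0.98 and Egr1 by -0.96. Of 29 cell cycle genes 27 had a positive difference (median 0.33, and 0.20 without LE540 replicate 1), against 43.6% of all genes. None of the 29 passed and 5 had an unadjusted p under 0.05, against 9.54% of all probe sets. Bub1, a mitotic checkpoint kinase, read 46.4, 310.3 and 166 in LE540, 294, 333 and 321 in ATRA and 389, 402 and 532 in DMSO (1.24). Cenpe differed by 1.09, and for both genes LE540 replicate 1 was far below the other arrays. The DMSO arrays of both genes lay above all ATRA and LE540 arrays. Cxcl10 did not pass in the fit on the 6 ATRA and LE540 arrays alone (adjusted p = 0.142). Cxcl10 did not pass with the cardiomyocyte score as a covariate (adjusted p = 0.152).

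Markers of the cells in the explants were read beside these results. The 12 markers of valve interstitial cells, the labelled tissue's main cell, all had a mean above the lower quartile of the arrays. Their summed intensity was 29100 to 33140 in ATRA, 15670 to 25320 in LE540 and 22310 to 28210 in DMSO, so ATRA and LE540 did not overlap. Of these, 11 had a positive difference, against 43.6% of all genes. The list's median was 0.61 (0.39 without LE540 replicate 1), and 1 passed, Vcan, against 0.436% of all genes higher in ATRA. Cardiomyocyte markers had a negative difference in 17 of 20, against 56.3% of all genes. Their median was -0.38, with none passing and 3 at an unadjusted p under 0.05, against 9.54% of all probe sets. They summed to 15260 to 26020 in ATRA and 15610 to 26930 in LE540. With a score of these markers as a covariate 59 probe sets passed, 46 higher in ATRA and 13 higher in LE540, and 49 of them were among the 141. Endothelial markers were positive in 18 of 20, against 43.6% of all genes (median 0.30, none passing, 2 passing with the replicate block). Of the 20, 4 had an unadjusted p under 0.05, against 9.54% of all probe sets. These markers summed to 4241 to 9039 in ATRA and 3421 to 5718 in LE540. Of 12 mesothelial and epithelial markers 7 had a positive and 5 a negative difference, with a median of 0.07. Of these markers 1 passed, Krt18 as above, against 0.436% of all genes higher in ATRA. Their sums, 1417 to 1478 in ATRA and 1114 to 1246 in LE540, did not overlap and include Krt18. The part of the interstitial and endothelial shifts in the differences above was not tested. Macrophage markers had a median of 0.22 that turned to -0.09 without LE540 replicate 1. None of them passed and 1 had an unadjusted p under 0.05, against 9.54% of all probe sets. Summed markers of smooth muscle (1544 to 2262 in ATRA, 1395 to 1777 in LE540), lymphocytes, red cells, melanocytes and Schwann cells overlapped between ATRA and LE540. None of these lists had a passing member in limma. In them 1 smooth muscle and 2 melanocyte markers had an unadjusted p under 0.05, against 9.54% of all probe sets.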

How the data were processed

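The series' value table holds 9 arrays, deposited by the authors as RMA intensities on a linear scale; per the submitters' processing notes, Affymetrix Expression Console 1.1 and RMA were used. RMA subtracts a modelled background, gives all arrays 1 distribution of probe values and summarises probes into probe sets, so a shift of most genes in 1 direction would be hidden. RNA was amplified and labelled with whole-transcript kits, per the labels' protocols, so small amounts of pooled tissue were copied before hybridisation. The genome build behind the probe sets is not given in the sources used here.

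Values of 23397 probe sets with a gene symbol in GEO's platform annotation were taken to log2 with no offset (21780 with 1 symbol, 1617 with several, and 4873 probe sets without a symbol left out), and the deposited scale was kept. The symbols of 21689 probe sets matched RefSeq through their Entrez identifiers, and no symbol differed. limma 3.58.1 in R 4.3.3 (lmFit and eBayes) fitted a 3-group model to all 9 arrays, so that DMSO adds to the estimate of spread, and ATRA was contrasted with LE540, two-sided. Passed means a Benjamini-Hochberg adjusted p under 0.1 over all tested probe sets. Differences are ATRA minus LE540. For the gene lists, each gene was read from 1 probe set, the one with the highest mean. Shares of all genes beside list counts are over 19934 genes read this way. Shares without overlap and at an unadjusted p under 0.05 are over the 23397 probe sets. Arrays are few, and with 3 against 3 their number limits the precision.

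Titles number the arrays of each group 1 to 3. ATRA and LE540 arrays of the same number deviated together (r of deviations from group means 0.261, 0.282 and 0.269, each over 0.1), and 3 of 3 ATRA arrays were closest to the LE540 array of their own number, a hint from the data, as the labels do not say what the numbers share. All values reported come from the fit without the replicate block; the blocked value stands beside a result where it changed a call or moved a count by over 1.5 times.

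Named genes are up to 15 passing genes with the largest difference in each direction, up to 4 passing members of each of 36 pathway lists (or the 2 largest if none passed), and a fixed set of retinoid, valve and stress genes. Adipoq, Bmp4, Cyp26c1, Fabp4, Gclm, Hspa5, Inhba, Lrat, Mt3, Mtf1, Nnmt, Nqo1, Ogn, Plin1, Shmt1, Tgfb1, Tgfbr1 and Txnrd1 fall outside this rule and were named after their values were seen. A further 11 lists hold cell type and sex markers. The comparison, its lists and its rule were chosen with earlier results of these data known. Scripts were tested on simulated data. Promoter sequences are RefSeq's (GRCm38.p6), the 250 bases before the start. Alternatives changed the arrays in the fit, the replicate block, normalization, an offset of 16, a filter on dim probe sets, the rows tested, the probe sets per gene, the prior variance, array weights, the threshold (0.05), covariates for Y-linked and cardiomyocyte markers, and each array left out.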

Additional observations from a re-analysis of the deposited data

How the results depend on the processing

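The count of 141 passing probe sets depended most on the arrays in the fit. With only the 6 ATRA and LE540 arrays it was 25 (20 higher and 5 lower in ATRA, 24 over 2-fold), with the replicate block 221 (158 higher), and with both the replicate block and 6 arrays 10 (9 higher, 1 lower, 10 over 2-fold). An adjusted p under 0.05 left 60 (43 higher, 17 lower, 54 over 2-fold), and a cardiomyocyte marker score as a covariate left 59 (46 higher, 13 lower, 53 over 2-fold). With 1 array left out the total ran from 54 to 278, the count higher in ATRA from 39 to 172, the count lower from 12 to 146 and the count over 2-fold from 50 to 183. The total fell by over 1.5 times without DMSO replicate 1 (61), DMSO replicate 2 (73), DMSO replicate 3 (54), ATRA replicate 1 (66), ATRA replicate 3 (61) or LE540 replicate 1 (67), and rose without LE540 replicate 2 (278, with 132 higher and 146 lower in ATRA) or LE540 replicate 3 (273). Quantile normalization (141), an offset of 16 (125), a filter on dim probe sets (151), testing all probe sets (132), 1 probe set per gene (141), trend and robust priors (127), array weights (125) and the Y-linked score (129) kept the total within 1.5 times. Of the 50 named passing probe sets, 21 kept their call with any 1 array left out and 20 passed in the 6-array fit; none changed direction in any of 22 alternatives. The replicate block ended the calls of Meis2 and Nars and no other call of these 50. The Y-linked score ended 8 calls and the cardiomyocyte score 22. Depth in the sequencing sense does not apply to arrays; probe sets below the lower quartile of their array, such as Cyp26a1 and Csn3 in LE540, have little signal over background.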

Other observations

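A further 93 of the 132 passing genes with 1 symbol belonged to none of the lists, and those given here were named after their values were seen, so their log2 differences (ATRA minus LE540, from the same limma fit) are a description. Slco2a1 (2.16, adjusted p = 0.0176), a prostaglandin transporter, Adgrg6 (1.98, adjusted p = 0.0451), an adhesion receptor, S1pr3 (1.82, adjusted p = 0.0619), a receptor for sphingosine 1-phosphate, and Aqp1 (1.63, adjusted p = 0.0239), a water channel, were higher in ATRA. Tns1 (1.86, adjusted p = 0.0645), tensin 1, and Fblim1 (1.76, adjusted p = 0.0526), both of focal adhesions, and Jup (1.39, adjusted p = 0.0384), plakoglobin of cell junctions, were also higher in ATRA. DMSO overlapped only ATRA for Slco2a1 and Tns1, and only LE540 for Adgrg6 and Aqp1. For S1pr3, Fblim1 and Jup it lay between without overlap.

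Also higher in ATRA were Htra1 (1.45, adjusted p = 0.015), a serine protease, Adamts3 (1.42, adjusted p = 0.0205), a procollagen protease, Spon2 (2.03, adjusted p = 0.0472), a secreted matrix protein, Sema3a (1.16, adjusted p = 0.0384), a guidance factor, and Sulf2 (1.09, adjusted p = 0.0264), which trims heparan sulfate. Fgf2, a growth factor, read 674, 869.5 and 900.3 in ATRA, 260.1, 367 and 346 in LE540 and 586, 823 and 586 in DMSO, with ATRA and DMSO overlapping (log2 difference 1.33, SE 0.19, adjusted p = 0.0402). The lipid gene Scd2 (1.98, adjusted p = 0.0502) had the same direction as its relative Scd1, with which it may share probe signal. DMSO overlapped only ATRA for Scd2 and only LE540 for Spon2. For Htra1, Adamts3, Sema3a and Sulf2 it lay between without overlap.

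Among genes higher in LE540 and outside the lists were Star (-1.29, adjusted p = 0.0258), which moves cholesterol into mitochondria, Il17ra (-1.17, adjusted p = 0.082), a cytokine receptor, and Hgsnat (-1.20, adjusted p = 0.0984), a lysosomal enzyme. Others were Nedd4l (-1.11, adjusted p = 0.0847), a ubiquitin ligase, Nnmt (-0.91, adjusted p = 0.0927), which methylates nicotinamide, and Klf5 (-0.54, adjusted p = 0.0626), a transcription factor. DMSO overlapped only LE540 for Hgsnat and only ATRA for Nedd4l. It lay between without overlap for Star, Il17ra and Klf5, and outside both groups for Nnmt.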
